A study of Mus musculus with 12 samples.

Results

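Ptprz1, the gene of the receptor phosphatase PTPRZ1, was described here with its ligands and its relatives in spiral ganglion neurons, which link the hair cells of the cochlea to the brainstem. The set held 10 genes, found by symbol, and all 10 were among the 25674 genes of the count table. Ptprz1 was chosen because it rose strongly in the libraries labelled Isl1CKO, so its values are given as a description with no test. The other 9 were chosen by family: the ligand genes Ptn and Mdk, and 7 genes of receptor-type tyrosine phosphatases, namely Ptprg, Ptprd, Ptprf, Ptprs, Ptprk, Ptprt and Ptpro.

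RNA came from spiral ganglia of E14.5 mouse embryos, where E is the embryonic day, with 100 cells sorted per library for the red reporter tdTomato and both inner ears of 1 embryo behind each library. The 6 control libraries carried Neurod1Cre and the Rosa26tdTOM reporter. The 6 libraries labelled Isl1CKO carried Isl1loxP/loxP as well, so that Cre could remove the transcription factor gene Isl1. Both groups thus carried the same Cre transgene, which a Neurod1 BAC construct drives in cells that express Neurod1, and the same reporter. The mice were on a mixed C57BL/6/sv129 background and of either sex, and came from 4 litters. A tag in the labels names the samples as technical replicates and the design text as biological ones, so p-values measure the spread between these libraries. The study asked which genes depend on ISL1 in these neurons.

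PTPRZ1 is a transmembrane tyrosine phosphatase whose extracellular part carries chondroitin sulfate chains, and a secreted form of it is known as phosphacan. Pleiotrophin and midkine, encoded by Ptn and Mdk, are small heparin-binding growth factors that bind these chains, and pleiotrophin binding lowers the phosphatase activity of the receptor. PTPRG is its closest relative and shares its carbonic anhydrase-like domain. The LAR family receptors encoded by Ptprf, Ptprs and Ptprd act in axon growth and in the assembly of synapses.

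Library sizes ran from 11895603 to 13857480 counts, so 3 counts, taken as the floor, corresponded to 0.219 to 0.250 CPM (the usual depth-scaled counts, here on TMM-scaled library sizes). By its counts over the whole gene Isl1 itself was not called, at 1538 ± 217 CPM in controls and 1391 ± 184 CPM in the libraries labelled Isl1CKO (SD, n = 6; log2 fold change -0.15, edgeR adjusted p = 0.460). Such counts cannot show whether the floxed segment was lost, so the genotype rests on the labels. The defining neuronal genes were present in every library, although Prph was as low as 0.381 CPM in the libraries labelled Isl1CKO, close to the floor. Summed over 11 such genes, levels ran from 16106 to 18331 CPM in controls. With the Isl1CKO label they ran from 13553 to 15833 CPM, and 2 genes were called higher and 4 lower. Stmn2 and Neurod1 were the higher ones, and Elavl4, Gata3, Nefl and Nefm the lower ones. Mean Nefm went from 3337 to 881 CPM, and mean Neurod1 from 1471 to 2715 CPM. The lower sum was thus not shared by all of these markers. Markers of Schwann cells and satellite glia varied widely, from 9.69 to 211 CPM in controls and from 16.5 to 489 CPM in the libraries labelled Isl1CKO, summed over 10 genes. The medians of this glial sum were 76.2 and 177 CPM. Macrophage markers ran from 1.70 to 372 CPM and from 0.875 to 685 CPM, summed over 8 genes, with medians of 6.68 and 110 CPM. Mesenchyme markers ran from 38.4 to 84.3 CPM and from 70.3 to 121 CPM over 8 genes, of which 4 were tested. Tbx18, with means of 1.09 and 39.5 CPM, and Col3a1, with 2.66 and 14.1 CPM, were called higher. Pou3f4 went the other way, from 52.9 to 27.4 CPM, and was not called (edgeR adjusted p = 0.143). Twist1 was also lower, at 1.13 and 0.0129 CPM, and was not tested. In the libraries labelled Isl1CKO 2, 3 and 5, Xist at 62.9 to 132 CPM stood beside a mean of 35.7 to 87.3 CPM for 4 Y-linked genes, although each library is labelled as 1 embryo. For the genes of the set and the genes named from the related lists, calls that were lost without these 3 libraries are given both ways. Calls of the marker genes are given with all libraries only.

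The upstream sequence of Ptprz1 is shown because the rise of its RNA is the reason for this account, and those of Ptprf and Ptprs because these LAR family genes moved in opposite directions. Each is the 250 bases before the annotated start in RefSeq, read 5′ to 3′ on the gene's strand of GRCm38.p6. RefSeq windows were matched for 8 of the 10 genes, and none was matched for Mdk and Ptprd. Capitals mark matches to the E-box CANNTG, which basic helix-loop-helix factors such as NEUROD1 bind. The motif leaves its middle letters open, so a match does not name the factor.
Ptprz1, chr6:22875252-22875501, plus strand: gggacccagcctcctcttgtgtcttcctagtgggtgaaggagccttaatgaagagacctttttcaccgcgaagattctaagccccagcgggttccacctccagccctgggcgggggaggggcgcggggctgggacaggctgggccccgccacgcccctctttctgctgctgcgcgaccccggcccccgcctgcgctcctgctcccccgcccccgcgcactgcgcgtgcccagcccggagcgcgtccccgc
Ptprf, chr4:118291398-118291647, minus strand: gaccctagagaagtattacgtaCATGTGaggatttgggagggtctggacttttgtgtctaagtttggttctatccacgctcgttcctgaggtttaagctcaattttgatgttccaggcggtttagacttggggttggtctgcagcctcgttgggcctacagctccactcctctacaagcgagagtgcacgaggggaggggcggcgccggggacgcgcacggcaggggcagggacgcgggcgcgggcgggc
Ptprs, chr17:56476481-56476730, minus strand: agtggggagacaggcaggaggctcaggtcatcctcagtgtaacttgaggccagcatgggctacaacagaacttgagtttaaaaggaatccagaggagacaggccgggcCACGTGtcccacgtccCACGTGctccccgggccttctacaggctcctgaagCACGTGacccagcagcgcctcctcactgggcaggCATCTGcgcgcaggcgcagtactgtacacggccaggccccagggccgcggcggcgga
The Ptprz1 window had a GC content of 71.6% and held 22 CG dinucleotides, against a median of 52.4% and 6 over 32851 mouse windows of the same length. It held no match to 3 motifs searched on both strands: the homeodomain palindrome TAATTA, the motif CTAATG reported for ISL1, and CANNTG. Matches of different motifs could overlap and were counted separately. Of all windows, 4.84% held TAATTA, 6.36% held CTAATG and 66.2% held CANNTG. Ptprs had a further RefSeq window, chr17:56462222-56462471, which held 0 matches to each of the 3 motifs and is not shown. The Ptprf window held 1 E-box and the Ptprs window shown held 4, and neither held the other motifs. A missing match says only that these letters are not in this window.

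Ptprz1 (ENSMUSG00000068748, chromosome 6, 22875502 to 23052916, plus strand, protein coding) was low in every control library and 9.31-fold higher in the libraries labelled Isl1CKO. In controls it had a lowest level of 14.8 CPM, a median of 19.2 and a highest of 25.2. In the libraries labelled Isl1CKO the lowest was 124 CPM in replicate 3, the median 175 and the highest 252 in replicate 5. The groups were far apart, and the lowest library labelled Isl1CKO lay well above the highest control. The means were 19.6 ± 4.45 and 182 ± 45.7 CPM (SD, n = 6), or 3.22 ± 0.19 in log2 fold (SE). The log2 fold change was 3.26 without the libraries labelled Isl1CKO 2, 3 and 5. Counts over the gene do not separate the transmembrane receptor from the secreted phosphacan form.

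**Figure D1:**
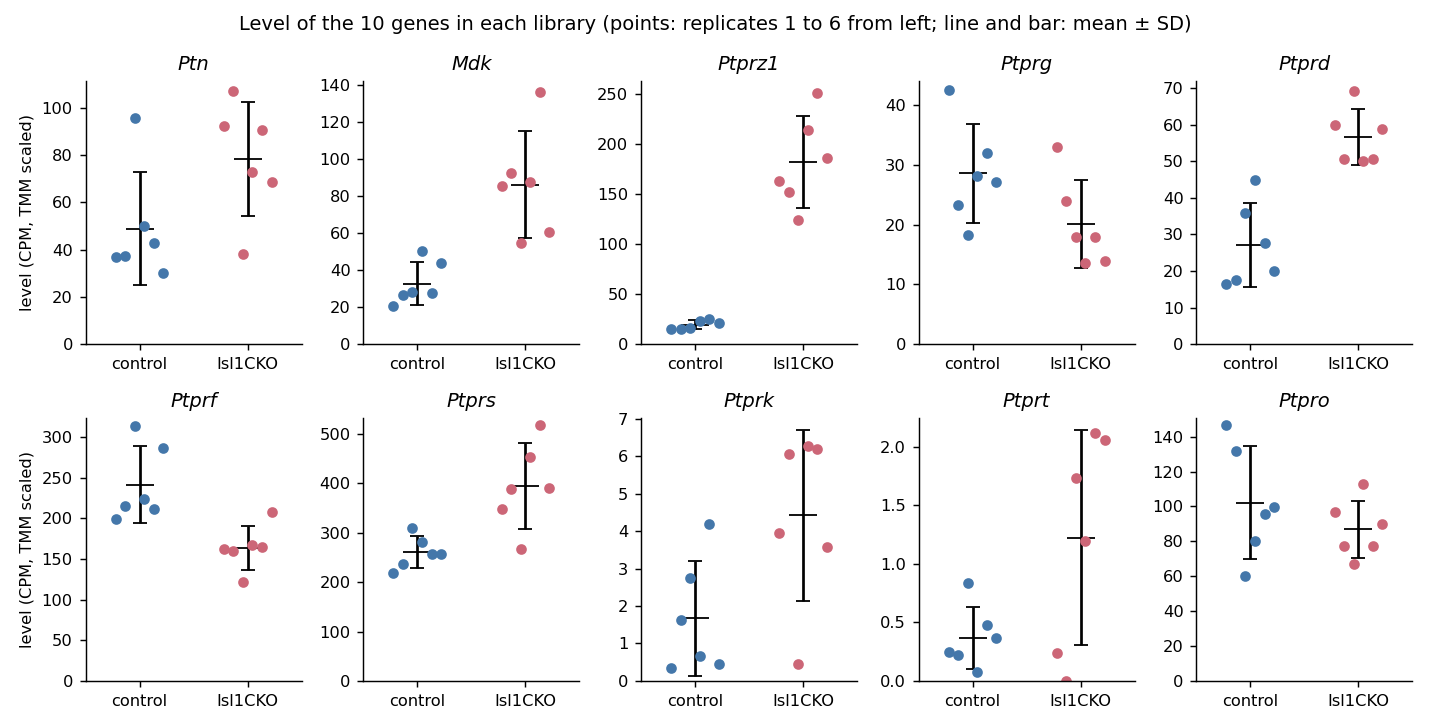
Level of each of the 10 genes in CPM (vertical axes start at 0 and differ between panels) in 6 control libraries (blue) and 6 libraries labelled Isl1CKO (red), with replicates 1 to 6 from left to right and the mean ± SD in black. Ptprz1, Mdk and Ptprd do not overlap between the groups, whereas Ptn has 1 high control, replicate 3 at 95.7 CPM.

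Because Ptprz1 is also known from glia, its level was set beside the markers of other cells in each library. Schwann cell and satellite glia markers were low in the libraries labelled Isl1CKO 6 and 3, at 16.5 and 24.6 CPM in sum, and Ptprz1 there stood at 187 and 124 CPM. Control 5 had 211 CPM of these markers and 25.2 CPM of Ptprz1, the highest of the controls. Controls 4 to 6, with 112 to 211 CPM of these markers, had 21.7 to 25.2 CPM of Ptprz1. Controls 1 to 3, with 9.69 to 40.7 CPM of them, had 14.8 to 16.7 CPM of Ptprz1. With the Isl1CKO label, replicate 2 had the highest sum of these markers and 153 CPM of Ptprz1. These relations within groups were not tested. Of the 10 Schwann and satellite glia markers 6 were tested, and none passed between the groups in edgeR. Each of the 10 had a higher mean with the Isl1CKO label. Sox10, a defining glial transcription factor, averaged 2.32 CPM in controls and 5.61 CPM in the libraries labelled Isl1CKO. Ednrb averaged 22.7 and 96.8 CPM (edgeR adjusted p = 0.387). With the mean log2 level of these markers as a covariate, the log2 fold change of Ptprz1 was 3.11. The library labelled Isl1CKO 5, with the highest Ptprz1, had 391 CPM of Schwann and satellite glia markers, second to the 489 CPM of replicate 2, and 0.875 CPM of macrophage markers. Replicate 4 labelled Isl1CKO, next in Ptprz1 at 215 CPM, had the highest macrophage sum, 685 CPM. Markers of radial glia and astrocytes summed to 3.96 to 31.2 CPM in controls and 9.75 to 22.8 CPM in the libraries labelled Isl1CKO over 5 genes, of which 2 were tested and 0 passed. The 2 tested genes moved in opposite directions. Mean Slc1a3 went from 11.2 CPM in controls to 2.92 CPM with the Isl1CKO label (edgeR adjusted p = 0.0619). Mean Nes went from 7.27 to 10.8 CPM (edgeR adjusted p = 0.581). Olig1 and Olig2, too scarce to be tested, reached 3.14 and 1.01 CPM with the Isl1CKO label, against at most 0.0732 and 0.159 CPM in controls. Markers of dividing cells, summed over 5 genes, had medians of 71.8 CPM in controls and 140 CPM with the Isl1CKO label. Replicates 1, 2 and 5 of that label, at 196 to 312 CPM, were above the highest control at 147 CPM. Its replicates 3, 4 and 6, at 54.4 to 83.6 CPM, were not. Of the tested markers of dividing cells, otic epithelium, hair cells and erythroid cells 0 passed, and 0 endothelial markers were tested. The neuronal sum was lower and the mesenchyme sum higher, each with markers that moved both ways. The part these sums have in these results was not tested. In bulk samples, more cells of a type and more RNA per cell cannot be told apart.

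**Figure D2:**
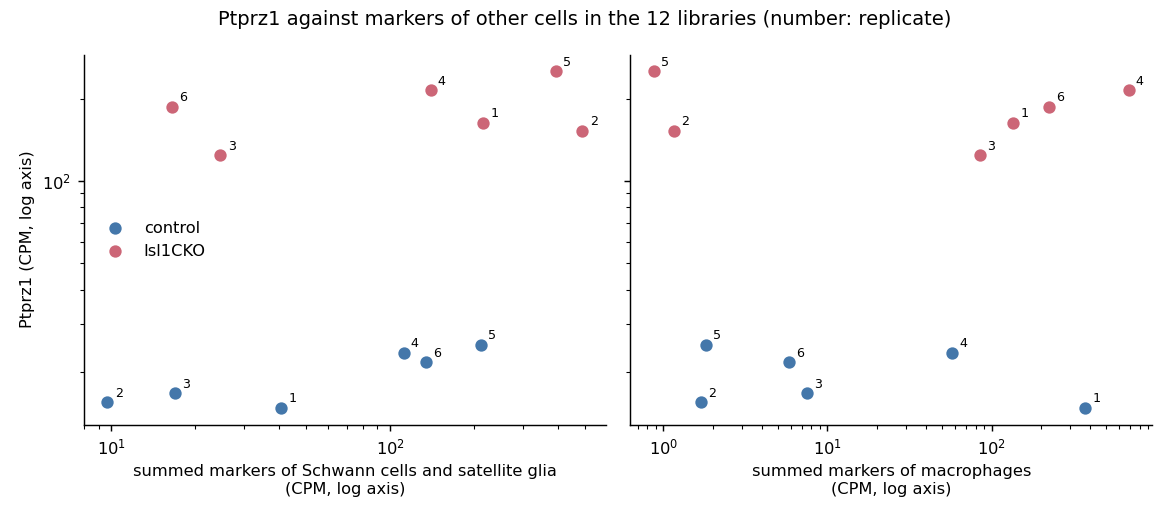
Ptprz1 level in CPM (vertical log axis) against the summed CPM of Schwann and satellite glia markers (left) or macrophage markers (right; horizontal log axes), with 1 point per library and its replicate number. The libraries labelled Isl1CKO lie at 124 to 252 CPM at every level of either marker sum, and the controls at 14.8 to 25.2 CPM.

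Over all 14813 genes tested, 1511 passed an adjusted p of 0.05 in the quasi-likelihood F-test of edgeR (Benjamini-Hochberg over all tested genes), which is 10.2%, with 5.01% called higher and 5.19% called lower. Groups did not overlap for 6.78% of tested genes. Of the 9 genes besides Ptprz1, 8 were tested and Ptprt did not pass the filter on low counts. Mdk, Ptprs and Ptprd were called higher and Ptprf was called lower, so 4 of 8 passed, and the groups did not overlap for Mdk and Ptprd, 2 of 8. Their median log2 fold change was 0.64, against 0.0045 over all tested genes. Without the libraries labelled Isl1CKO 2, 3 and 5, Mdk and Ptprs were still called, and Ptprd and Ptprf were not.

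**Figure D3:**
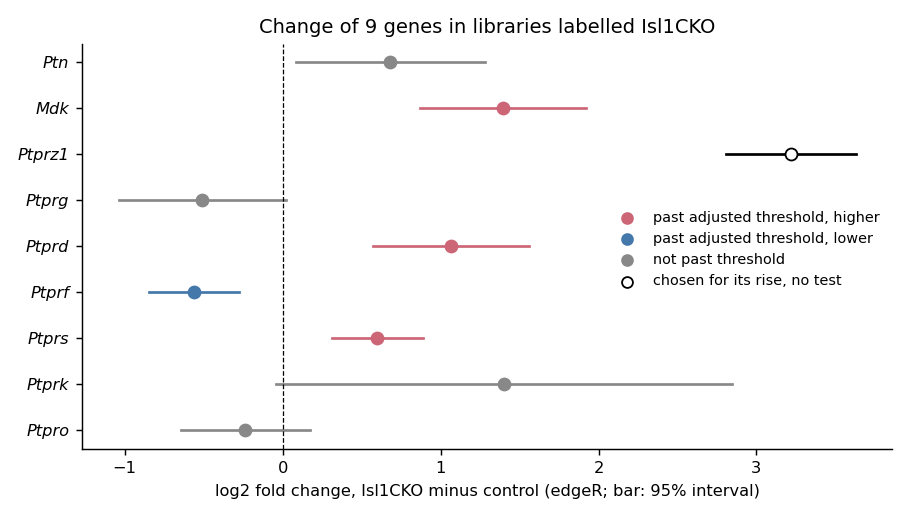
Log2 fold change of 9 of the genes (horizontal axis, Isl1CKO minus control) with unadjusted 95% intervals from edgeR. Filled red and blue points passed the adjusted threshold, and grey points did not. The open point is Ptprz1, which was chosen for its rise and has no test, so its interval is a description only.

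Both ligand genes had higher means in the libraries labelled Isl1CKO, and the test was passed by midkine alone. Mdk (ENSMUSG00000027239, chromosome 2, 91929805 to 91932297, minus strand) had a lowest level of 20.4 CPM, a median of 28.0 and a highest of 50.1 in controls. With the Isl1CKO label these values were 54.6 CPM in replicate 3, 86.5 and 136 in replicate 5. The groups did not overlap, although the lowest library labelled Isl1CKO was close to the highest control. The means were 32.7 ± 11.5 and 86.2 ± 29.0 CPM (SD, n = 6), or 1.39 ± 0.25 in log2 fold (SE; edgeR adjusted p = 0.00174). The Mdk log2 fold change was 1.24 without the libraries labelled Isl1CKO 2, 3 and 5 (edgeR adjusted p = 0.0184), and 1.12 with the Schwann marker covariate (edgeR adjusted p = 0.00264).

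Ptn (ENSMUSG00000029838, chromosome 6, 36714929 to 36810220, minus strand) encodes pleiotrophin, the ligand best known for PTPRZ1. Its lowest, median and highest levels were 29.9, 40.2 and 95.7 CPM in controls, and 38.2, 81.6 and 107 CPM in the libraries labelled Isl1CKO. Control 3 alone was far above the other controls, which ended at 50.1 CPM, and replicate 3 of the libraries labelled Isl1CKO was below the median control. Control 3 also had a mitochondrial share of 1.65%, against 1.05% to 1.18% in the other controls. The libraries labelled Isl1CKO had 0.845% to 1.02%, below every control. The part of this share in these results was not tested. The means were 48.8 ± 23.9 and 78.3 ± 24.1 CPM (SD, n = 6), or 0.68 ± 0.28 in log2 fold (SE) with a 95% interval of 0.086 to 1.28. This did not pass (edgeR adjusted p = 0.150), whereas without control 3 it did, at 0.98 (edgeR adjusted p = 0.0122). Limma-voom with sample weights also called Ptn, at 0.91 (adjusted p = 0.0167).

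Per kilobase of annotated exon, Mdk was above Ptn in 5 of 6 control libraries and in all 6 libraries labelled Isl1CKO. The log2 ratio of Mdk to Ptn was 0.84 ± 0.78 in controls and 1.52 ± 0.36 in the libraries labelled Isl1CKO (SD, n = 6). This difference of 0.68 was within the spread between libraries (exact 2-sided permutation p = 0.0779, adjusted p = 0.0974 over 5 composition measures, n = 6). Control 3, where Ptn was high, was the library in which Ptn exceeded Mdk, with a log2 ratio of -0.39. Without control 3 the difference was 0.43 (exact permutation p = 0.156), and without control 6, which had the highest control ratio at 1.92, it was 0.89 (exact permutation p = 0.0152).

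Ptprg, the gene of the closest relative of PTPRZ1, had a lower mean in the libraries labelled Isl1CKO and was not called. Ptprg (ENSMUSG00000021745, chromosome 14, 11553532 to 12242041, plus strand) had a lowest, median and highest level of 18.3, 27.7 and 42.5 CPM in controls and of 13.5, 18.0 and 33.0 CPM in the libraries labelled Isl1CKO. The groups overlapped, and 4 of the 6 libraries labelled Isl1CKO were below the lowest control. The means were 28.6 ± 8.28 and 20.1 ± 7.38 CPM (SD, n = 6), or -0.51 ± 0.25 in log2 fold (SE) with a 95% interval of -1.04 to 0.018 (edgeR adjusted p = 0.232). The log2 fold change of Ptprg was negative under all 22 alternative settings run, from -0.71 to -0.37. Its exons overlap a gene on the opposite strand, Gm48603, and those of Ptprd overlap B230208B08Rik, and without a stated strand setting their counts are uncertain. Contactin genes whose proteins bind PTPRG were Cntn4 and Cntn5 among those tested, and 0 of these 2 passed in edgeR, with 0 at an unadjusted p under 0.05 and 0 by DESeq2 or limma-voom.

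The 3 LAR family genes moved in different directions. Ptprf (ENSMUSG00000033295, chromosome 4, 118208213 to 118291405, minus strand), which encodes LAR itself, fell. Its lowest, median and highest levels were 199.9, 219 and 314 CPM in controls and 122, 163 and 208 CPM in the libraries labelled Isl1CKO. The groups overlapped only through replicate 6 labelled Isl1CKO, and the other 5 libraries of that label were below every control. The means were 242 ± 46.9 and 164 ± 27.1 CPM (SD, n = 6), or -0.56 ± 0.13 in log2 fold (SE; edgeR adjusted p = 0.0140). Without the libraries labelled Isl1CKO 2, 3 and 5 the value was -0.44 and the call was lost (edgeR adjusted p = 0.175).

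Ptprs (ENSMUSG00000013236, chromosome 17, 56412426 to 56476483, minus strand), which encodes a receptor for chondroitin and heparan sulfate proteoglycans, rose. Its lowest, median and highest levels were 219, 256 and 310 CPM in controls. With the Isl1CKO label they were 266 CPM in replicate 3, 390.0 and 518 in replicate 5, and all but replicate 3 were above every control. The means were 260.1 ± 32.4 and 394 ± 86.4 CPM (SD, n = 6), or 0.60 ± 0.13 in log2 fold (SE; edgeR adjusted p = 0.00943). The call held without the libraries labelled Isl1CKO 2, 3 and 5, at 0.61 (edgeR adjusted p = 0.0122). Replicate 3 was the lowest and replicate 5 the highest of the libraries labelled Isl1CKO for Ptprz1, Mdk and Ptprs alike. Replicate 3 was also the lowest of that label for Ptn, Ptprf, Ptpro and Ptprk, though not for Ptprg, Ptprd or Ptprt. Both replicates are among the libraries that held Xist and Y-linked transcripts together.

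Ptprd (ENSMUSG00000028399, chromosome 4, 75941238 to 78211961, minus strand), the third LAR family gene, with roles at synapses, also rose and did not overlap between the groups. Its lowest, median and highest levels were 16.4, 23.7 and 45.0 CPM in controls and 50.2, 54.7 and 69.2 CPM in the libraries labelled Isl1CKO. Here replicate 3, low for Ptprz1 and Mdk, was the highest of its group. The means were 27.0 ± 11.4 and 56.6 ± 7.61 CPM (SD, n = 6), or 1.06 ± 0.23 in log2 fold (SE; edgeR adjusted p = 0.00759). The call was lost, at 1.05, without the libraries labelled Isl1CKO 2, 3 and 5 (edgeR adjusted p = 0.0738).

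Summed per kilobase of exon, the LAR family differed between the groups by less than the spread between libraries, while its makeup differed by more. The log2 of the summed level was 5.48 ± 0.22 in controls and 5.53 ± 0.24 in the libraries labelled Isl1CKO (SD, n = 6), and this difference of 0.053 was within the spread (exact 2-sided permutation p = 0.693, adjusted p = 0.693). Ptprf made up 58.6% ± 3.37 of the family in controls, with a range of 54.1% to 63.5%. In the libraries labelled Isl1CKO it made up 38.5% ± 3.90, with a range of 32.8% to 44.2%, so the groups did not overlap (SD, n = 6; exact permutation p = 0.00216, the smallest that 924 splits allow, adjusted p = 0.00541). Ptprs went from 38.8% ± 2.69 to 55.9% ± 4.80 (SD, n = 6; exact permutation p = 0.00216, adjusted p = 0.00541), and Ptprd from 2.61% ± 0.982 to 5.53% ± 1.78 (SD, n = 6; exact permutation p = 0.00649, adjusted p = 0.0108), with replicates 4 and 5 labelled Isl1CKO within the control range. Ptprf was thus the larger share of the family in every control, and Ptprs in every library labelled Isl1CKO. The order in controls rests on the scaling by exon length. In CPM without it, Ptprs was above Ptprf in controls 1, 2, 4 and 5, and below it in controls 3 and 6. Without the libraries labelled Isl1CKO 2, 3 and 5 the difference in the Ptprf share changed from -20.1 to -18.3 percentage points (exact permutation p = 0.0119, the smallest that 6 against 3 allows). The shares sum to the whole, rest on the same libraries as the fold changes and were added after these were seen, so they are no independent evidence.

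**Figure D4:**
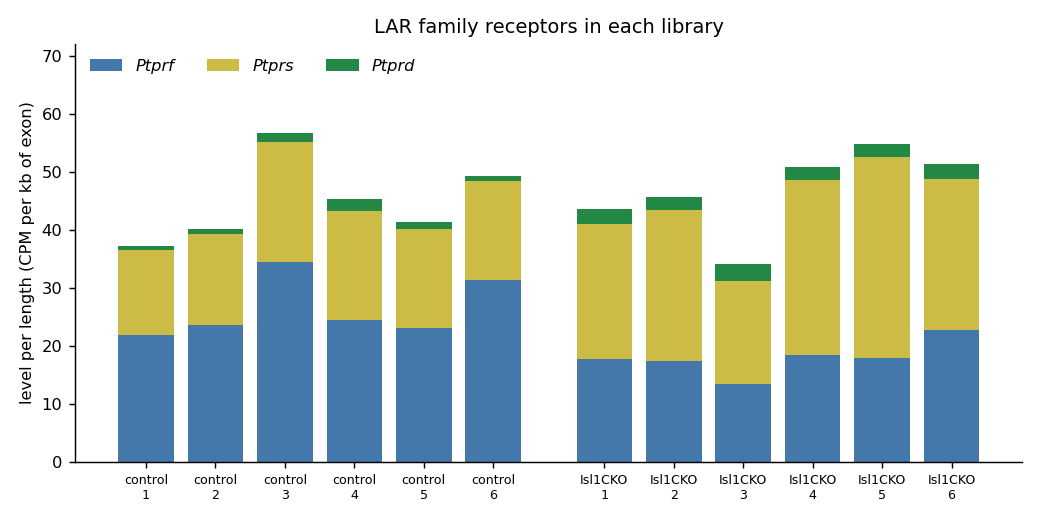
Level of Ptprf, Ptprs and Ptprd per kilobase of exon (vertical axis, CPM per kb, stacked from 0) in each library. Total bar height varies within both groups, while the Ptprf part takes 54.1% to 63.5% in controls and 32.8% to 44.2% in the libraries labelled Isl1CKO.

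The remaining receptors were the homophilic adhesion phosphatases Ptprk and Ptprt and the neuronal receptor gene Ptpro. Ptpro (ENSMUSG00000030223, chromosome 6, 137252319 to 137463233, plus strand) had a lowest, median and highest level of 60.0, 97.6 and 147 CPM in controls and of 67.1, 83.6 and 113 CPM in the libraries labelled Isl1CKO. The ranges lay almost wholly over each other. Its log2 fold change was -0.24 with a 95% interval of -0.65 to 0.17 (edgeR adjusted p = 0.513).

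Ptprk (ENSMUSG00000019889, chromosome 10, 28074820 to 28597397, plus strand) was scarce, with 4 to 53 counts per control library and 6 to 85 counts per library labelled Isl1CKO. Its means were 1.67 ± 1.54 and 4.42 ± 2.28 CPM (SD, n = 6), and 3 libraries labelled Isl1CKO were above the highest control. The log2 fold change was 1.40 with a wide 95% interval of -0.044 to 2.85 (edgeR adjusted p = 0.230). Ptprt (ENSMUSG00000053141, chromosome 2, 161521990 to 162661147, minus strand) had 1 to 10 counts in the controls, 3 of which were at or under the floor of 3 counts. In the libraries labelled Isl1CKO, replicates 1 to 6 had 3, 0, 23, 16, 29 and 27 counts, so 4 libraries were above all controls and 2 were at or under the floor. The 0 counts of replicate 2 allow up to 0.233 CPM at 3 counts. With no filter the log2 fold change of Ptprt was 1.71 (edgeR adjusted p = 0.317).

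Compared per kilobase of exon, the order of the 10 genes differed between the groups. In controls Ptprf was highest at 26.4 ± 5.12 CPM per kb, followed by Mdk at 24.7 ± 8.65, Ptprs at 17.3 ± 2.16, Ptpro at 15.2 ± 4.78 and Ptn at 14.2 ± 6.97 (SD, n = 6). The ranges of neighbours in this order overlapped, so the order of neighbours is not resolved. The lowest Ptprf, 21.85 CPM per kb, was above the highest Ptprs at 20.68 and the highest Ptpro at 21.80. Below a gap came Ptprg at 2.59 ± 0.752, Ptprz1 at 1.37 ± 0.312 and Ptprd at 1.18 ± 0.501 CPM per kb, and below another gap Ptprk and Ptprt at 0.125 and 0.0294 CPM per kb. In the libraries labelled Isl1CKO, Mdk was highest at 65.1 ± 21.9 CPM per kb (SD, n = 6), and its range did not reach that of any other gene. Ptprs, Ptn, Ptprf, Ptpro and Ptprz1 followed at 26.3, 22.8, 17.9, 12.9 and 12.8 CPM per kb, each with a range that overlapped the next. Ptprz1 therefore stood with Ptprg and Ptprd in controls and with Ptpro in the libraries labelled Isl1CKO, at 12.8 ± 3.21 against 12.9 ± 2.44 CPM per kb (SD, n = 6). Ptprd and Ptprg came after another gap, at 2.48 and 1.82 CPM per kb.

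The genes with the pattern most like Ptprz1, by Pearson's r of log2 CPM over the 12 libraries, were Brinp3 (0.987), Lhx2 (0.986), Lhx1os (0.983), Cacna2d1 (0.981) and Mn1 (0.980), out of 9595 genes whose log2 CPM averaged at least 3. Lhx2, a LIM-homeodomain factor gene, averaged 4.87 CPM in controls and 372 CPM in the libraries labelled Isl1CKO. These values of r mostly describe the step between the groups. After each group was centred on its mean, r for the same genes was 0.548, 0.637, 0.501, 0.440 and 0.559. For Ptn the 5 most alike were Ppp3ca (0.906), Eef2k (0.895), B3gat2 (0.870), Osbpl11 (0.841) and Sez6 (0.837), and their centred r ran from 0.742 to 0.881. These likenesses are descriptions over libraries that share a group and a depth, with no test.

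Genes that work with these receptors were read from 8 lists with 114 genes, of which 91 were tested. Of these, 4 were called higher and 8 lower, or 13.2% against 10.2% of all tested genes. Their median log2 fold change was -0.029, against 0.0045 over all tested genes. Without the libraries labelled Isl1CKO 2, 3 and 5 the count was again 12, with 6 in each direction.

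Among 13 tested genes for other receptors of pleiotrophin and midkine, 1 was higher and 1 lower, or 15.4% against 10.2% of all tested genes. Alk (ENSMUSG00000055471), a receptor tyrosine kinase gene tied to pleiotrophin and midkine signalling, went from 10.2 ± 4.52 to 1.87 ± 1.36 CPM (SD, n = 6). Its groups did not overlap, with a lowest control of 4.67 CPM and a highest library labelled Isl1CKO of 3.91 CPM, and the change was -2.44 ± 0.55 in log2 fold (SE; edgeR adjusted p = 0.00956). Itga4, an integrin subunit gene, went from 25.6 ± 8.51 to 75.6 ± 16.3 CPM (SD, n = 6), or 1.56 in log2 fold (edgeR adjusted p = 1.95e-04), although its exons overlap Cerkl on the opposite strand. Neither syndecan-3 nor nucleolin differed past the threshold, with log2 fold changes of -0.31 for Sdc3 (edgeR adjusted p = 0.409) and -0.023 for Ncl (edgeR adjusted p = 0.862).

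Of 13 tested genes for binding partners and substrates of PTPRZ1, 1 was higher and 1 lower, or 15.4% against 10.2% of all tested genes. Both encode adhesion molecules of axons. Nrcam fell from 378 ± 35.0 to 252 ± 28.0 CPM (SD, n = 6; log2 fold change -0.59, edgeR adjusted p = 4.47e-04). Ncam1 rose from 1463 ± 167 to 2018 ± 202 CPM (SD, n = 6; log2 fold change 0.46, edgeR adjusted p = 0.00217), and its exons overlap Gm11149 on the opposite strand. Contactin-1, the neuronal partner of PTPRZ1, differed by -0.12 in log2 fold for Cntn1 (edgeR adjusted p = 0.543).

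The extracellular partners of the LAR family, most of them synaptic adhesion proteins, had 1 gene called higher and 3 lower among 13 tested. That share was 30.8%, against 10.2% of all tested genes. Ntrk3, which encodes a neurotrophin receptor that binds PTPRS, fell from 276 ± 41.3 to 105 ± 25.9 CPM (SD, n = 6; log2 fold change -1.40, edgeR adjusted p = 3.97e-05). Slitrk3, for a synaptic adhesion protein that binds PTPRD, fell from 63.9 ± 19.5 to 20.0 ± 6.95 CPM (SD, n = 6; log2 fold change -1.68, edgeR adjusted p = 4.79e-04). Il1rapl1, whose protein binds PTPRD, rose from 2.97 ± 2.33 to 25.3 ± 6.96 CPM (SD, n = 6), or 3.09 ± 0.51 in log2 fold (SE; edgeR adjusted p = 0.00102). The third gene called lower was Slitrk1, named after its value was seen, at -1.58 in log2 fold (edgeR adjusted p = 0.00268), a call lost without the libraries labelled Isl1CKO 2, 3 and 5 (edgeR adjusted p = 0.0540). Without these 3 libraries the list had 2 genes called higher and 2 lower. For Slitrk3, Ntrk3 and Il1rapl1, named for their smallest p, the groups did not overlap, as was so for 6.78% of all tested genes. Of 8 tested genes for intracellular partners, liprins included, 0 passed in edgeR, with 2 at an unadjusted p under 0.05 and 0 by DESeq2 or limma-voom, and 1 passed, as higher, in each of 3 alternatives: without the libraries labelled Isl1CKO 2, 3 and 5, without control 3 and with the replicate number as a block.

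Among 21 tested genes of chondroitin sulfate proteoglycans and their synthesis, 1 was higher and 2 lower, or 14.3% against 10.2% of all tested genes. The core protein genes Ncan and Vcan, for neurocan and versican, moved in opposite directions. Ncan rose from 160 ± 15.7 to 223 ± 14.4 CPM (SD, n = 6; log2 fold change 0.48, edgeR adjusted p = 9.78e-04), and Vcan fell from 181 ± 26.6 to 96.8 ± 19.1 CPM (SD, n = 6; log2 fold change -0.90, edgeR adjusted p = 6.08e-04). B3gat3, an enzyme gene for the linker of these chains, changed by -0.66 in log2 fold (edgeR adjusted p = 0.0236), which was lost without the libraries labelled Isl1CKO 2, 3 and 5 (edgeR adjusted p = 0.103), without control 6 (edgeR adjusted p = 0.0560) and with the replicate number as a block (edgeR adjusted p = 0.0503).

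Of 9 tested genes for other receptor-type phosphatases, 0 were higher and 1 was lower, or 11.1% against 10.2% of all tested genes. The gene called lower was Ptpre, which went from 9.27 ± 4.07 to 1.74 ± 1.79 CPM (SD, n = 6; log2 fold change -2.41, edgeR adjusted p = 0.0319). That call was lost in 6 of 22 alternatives. Without the libraries labelled Isl1CKO 2, 3 and 5 the value was -1.81 (edgeR adjusted p = 0.197), and no gene of the list was then called. The call was also lost with the Schwann marker covariate (edgeR adjusted p = 0.0691), without control 4 (0.0721) or control 2 (0.0501), and without the library labelled Isl1CKO 2 (0.0615) or 3 (0.0589). Its exons also overlap 5830432E09Rik on the opposite strand. Of 12 tested cytoplasmic phosphatase genes, 0 passed in edgeR, with 2 at an unadjusted p under 0.05 and 0 by DESeq2 or limma-voom, and their median log2 fold change was -0.16. The count of cytoplasmic genes called was 1, lower, both without the libraries labelled Isl1CKO 2, 3 and 5 and with the Schwann marker covariate.

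**Figure D5:**
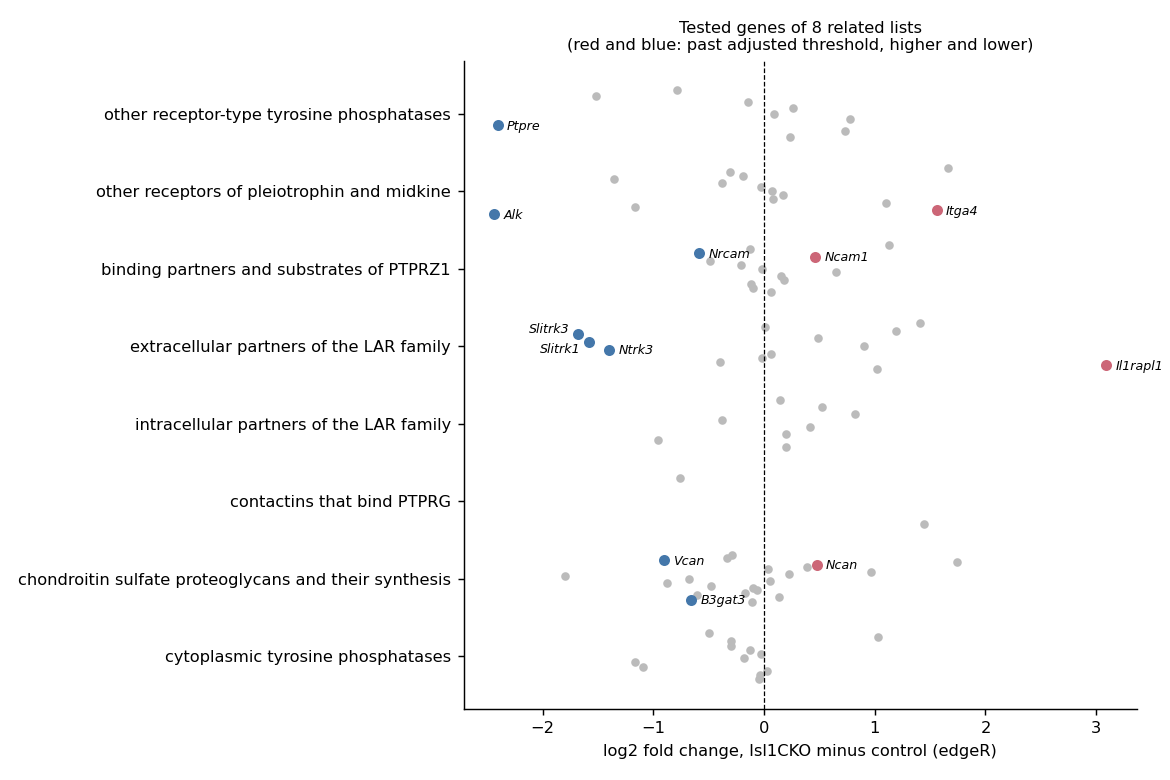
Log2 fold change (horizontal axis, Isl1CKO minus control) of the 91 tested genes of 8 related lists (rows; vertical offsets within a row only separate points). Red and blue points with names passed the adjusted threshold as higher (4) and lower (8), and grey points did not.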

How the data were processed

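Raw read counts per gene for 12 libraries were used as deposited. Per the submitters' processing notes, cutadapt 1.18, Bowtie 1.2.2, STAR 2.7.0c and featureCounts were used with GRCm38.p6. The role of each tool, the annotation and the use of strand are not given in the sources used here.

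Counts were tested with edgeR 4.0.16 in R 4.3.3: filterByExpr with a minimum count of 10, TMM scaling, robust quasi-likelihood F-tests of the 6 libraries labelled Isl1CKO against 6 controls, and Benjamini-Hochberg adjustment over all 14813 genes tested. The standard error is the log2 fold change divided by the square root of F, and intervals are unadjusted. DESeq2 1.42.0 and limma 3.58.1 (limma-voom) served as alternatives. Levels per kilobase divide CPM by summed exon length in GENCODE M21. Composition measures were compared by exact 2-sided permutation over 924 splits, adjusted over 5. The scripts were tested on simulated data. All 66 pairs of libraries differed beyond sampling noise. Intervals and floors cover counting error or the spread between libraries, and PCR copies may remain.

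Every gene of the set was named; from each pathway list, up to 3 called genes with the smallest p; and the 5 most alike to Ptprz1 and Ptn. Sdc3, Ncl, Cntn1, Slitrk1 and the marker genes were named outside this rule, after their values were seen. The genes and lists were chosen with earlier results of these data known. Promoter windows are RefSeq's, from GRCm38.p6, cut to the 250 bases before the start.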

Additional observations from a re-analysis of the deposited data

Results flagged for a closer look

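The Ptn level of control replicate 3, at 95.7 CPM, stood apart from the other 5 controls, which ran from 29.9 to 50.1 CPM. Its gap to the nearest library was 0.694 of the range of the group, above Dixon's 95% critical value for 6 samples. Of 30 groups of 6 libraries checked, 1 was singled out, where chance gives about 1.5. Ptn passed the test without this library, at 0.98 in log2 fold (edgeR adjusted p = 0.0122).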

How the results depend on the processing

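Over 38 results, 779 of 810 alternative values kept their direction and their side of the threshold or stayed near the main value, 15 values were counts that moved, 13 values over 6 results lost a call, 3 values over 2 results gained one and 0 reversed. The margin for counts was wide, so that 2100 called genes in place of 1511 were taken as near. Genes and lists with no call in either fit are also among the 779. The log2 fold change of Ptprz1 ran from 3.11 to 3.31 over 22 settings. These Ptprz1 values are among the 810 and are a description only, since Ptprz1 was chosen for its rise. Without the libraries labelled Isl1CKO 2, 3 and 5, 767 genes were called in place of 1511, and 2 genes of the set in place of 4; 3 libraries fewer were compared. DESeq2 called 2100 genes, limma-voom 1782 and edgeR with no filter 1376. DESeq2 called 5 chondroitin sulfate genes in place of 3, and 4 other receptor genes of pleiotrophin and midkine in place of 2. Leaving out 1 replicate at a time gave 1178 to 1517 called genes, 4 to 5 called genes of the set and a difference in the Mdk to Ptn log2 ratio of 0.43 to 0.89. The largest, 0.89, came without control 6 and gained a call (exact permutation p = 0.0152); the cause was not tested. Replicate numbers did not pair the samples: same-numbered libraries correlated at -0.056 to 0.152, and 1 of 6 correlated best with its own number. With the replicate number as a block, 1450 genes and 4 genes of the set were called, and the Ptprd share of the LAR family differed by 2.92 percentage points (exact permutation p = 0.0625 within pairs). At 3 counts or fewer, as for Ptprt in 3 controls and 2 libraries labelled Isl1CKO, levels could not be resolved. The composition measures and their alternatives were chosen after seeing the data.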
